A study of Mus musculus with 4 samples.

Results

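Genes of the unfolded protein response and of the amino acid response were followed in ATDC5 cells, a mouse chondroprogenitor line, before and after chondrogenic culture. The 34 genes were taken from a written list of symbols, with probe sets annotated to 1 of these symbols alone and the brightest probe set of each gene, out of 19938 genes measured in the same way. All 34 had a probe set. The day 0 group (2 arrays) was undifferentiated ATDC5 cells in basal medium with serum and ascorbic acid. The day 15 group (2 arrays) was the same line after 15 days with insulin, transferrin and selenite added to that medium. No cells were kept for 15 days without the supplement, so time in culture, supplement and differentiation cannot be told apart. Each array held total RNA of 1 sample of a single cell line, and the labels do not say whether the samples were separate cultures. The p-values therefore reflect the scatter among 4 samples, part or all of which may be technical.

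When unfolded proteins build up in the endoplasmic reticulum (ER), the membrane sensors Ern1 (IRE1), Atf6 and the kinase PERK start the unfolded protein response. Ern1 splices the mRNA of the transcription factor Xbp1, Atf6 is cut into a transcription factor, and PERK phosphorylates the initiation factor eIF2, which slows translation while favouring that of Atf4. Shortage of amino acids reaches Atf4 through another eIF2 kinase, GCN2, and Atf4 then drives genes of amino acid synthesis and uptake as well as stress effectors such as Ddit3 (CHOP). Chondrocytes secrete large amounts of collagen and proteoglycan and therefore depend on ER folding capacity. Splicing of Xbp1, cleavage of Atf6 and translation of Atf4 are not visible in probe set intensities.

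The promoters of these genes are known for short elements that the factors above bind, and the stretches below are shown because they carry exact matches. Promoter sequences were those of RefSeq (GRCm38.p6), and 30 of the 34 genes matched, leaving Slc7a5, Manf, Hyou1 and Atf6 without a sequence. The 250 bases before each annotated start were searched on both strands for the C/EBP-ATF response element (CARE, TGATGNAA), the ER stress response elements ERSE (CCAAT and CCACG with 9 bases of any kind between them) and ERSE-II (ATTGG and CCACG with 1 base between them), and the unfolded protein response element (UPRE, TGACGTGG). ERSE, ERSE-II and UPRE share the letters CCACG or their complement. ERSE was present in 37 of all 32851 promoter windows of that length (0.113%) and in 7 of the 11 ER chaperones and foldases with a sequence. In the following lines, read 5′ to 3′ along the gene, capitals mark the match, which is the reverse complement of the motif in Calr, Creld2 and the second match of Hsp90b1. The line of Hspa5, the ER chaperone BiP, shows the whole window before the start.

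Hspa5, GRCm38.p6 chr2:34771840-34772089, + strand: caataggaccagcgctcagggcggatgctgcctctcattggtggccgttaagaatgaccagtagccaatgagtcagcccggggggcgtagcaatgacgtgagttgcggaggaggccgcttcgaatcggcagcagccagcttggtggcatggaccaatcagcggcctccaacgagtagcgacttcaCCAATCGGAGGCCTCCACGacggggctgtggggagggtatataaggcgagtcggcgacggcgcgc

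Hsp90b1, GRCm38.p6 chr10:86705511-86705678, - strand: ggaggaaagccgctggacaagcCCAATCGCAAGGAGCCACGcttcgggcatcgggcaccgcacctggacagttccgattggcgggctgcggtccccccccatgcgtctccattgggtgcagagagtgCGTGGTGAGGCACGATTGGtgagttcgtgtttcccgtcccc

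Calr, GRCm38.p6 chr8:84847053-84847115, - strand: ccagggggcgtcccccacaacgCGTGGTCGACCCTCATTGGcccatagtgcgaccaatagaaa

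Canx, GRCm38.p6 chr11:50325778-50325840, - strand: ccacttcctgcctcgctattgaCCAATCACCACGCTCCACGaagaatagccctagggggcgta

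Pdia6, GRCm38.p6 chr12:17266469-17266531, + strand: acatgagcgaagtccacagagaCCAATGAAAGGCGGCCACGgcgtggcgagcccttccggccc

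Dnajc3, GRCm38.p6 chr14:118937805-118937867, + strand: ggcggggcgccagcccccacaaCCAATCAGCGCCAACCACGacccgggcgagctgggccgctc

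Creld2, GRCm38.p6 chr15:88819498-88819560, + strand: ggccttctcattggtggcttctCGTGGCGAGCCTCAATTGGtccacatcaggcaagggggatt

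ERSE-II was present in 10 of the windows (0.0304%), among the genes studied only in that of Herpud1, a component of ER-associated degradation.

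Herpud1, GRCm38.p6 chr8:94386355-94386409, + strand: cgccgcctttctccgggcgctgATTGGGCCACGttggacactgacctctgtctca

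CARE was present in 1134 of the windows (3.45%) and in 5 of the 30 genes, namely Atf3, Chac1, Asns, Slc7a11 and Herpud1. The first 4 are given with capitals on the match. In Atf3 and Chac1 the capitals are the reverse complement of the motif, and Slc7a11 holds 1 match on each strand.

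Atf3, GRCm38.p6 chr1:191183414-191183465, - strand: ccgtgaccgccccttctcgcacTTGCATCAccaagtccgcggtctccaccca

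Chac1, GRCm38.p6 chr2:119351027-119351078, + strand: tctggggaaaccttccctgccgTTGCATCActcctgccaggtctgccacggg

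Asns, GRCm38.p6 chr6:7693210-7693254, - strand: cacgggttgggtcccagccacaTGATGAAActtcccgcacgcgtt

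Slc7a11, GRCm38.p6 chr3:50443631-50443701, - strand: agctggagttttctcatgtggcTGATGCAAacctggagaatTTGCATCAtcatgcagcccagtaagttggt

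UPRE was present in 185 of the windows (0.563%) and in 0 of the 30. These are matches of letters in a fixed window and show neither binding nor its absence. The map of motif matches places each match before the gene start.

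**Figure D1:**
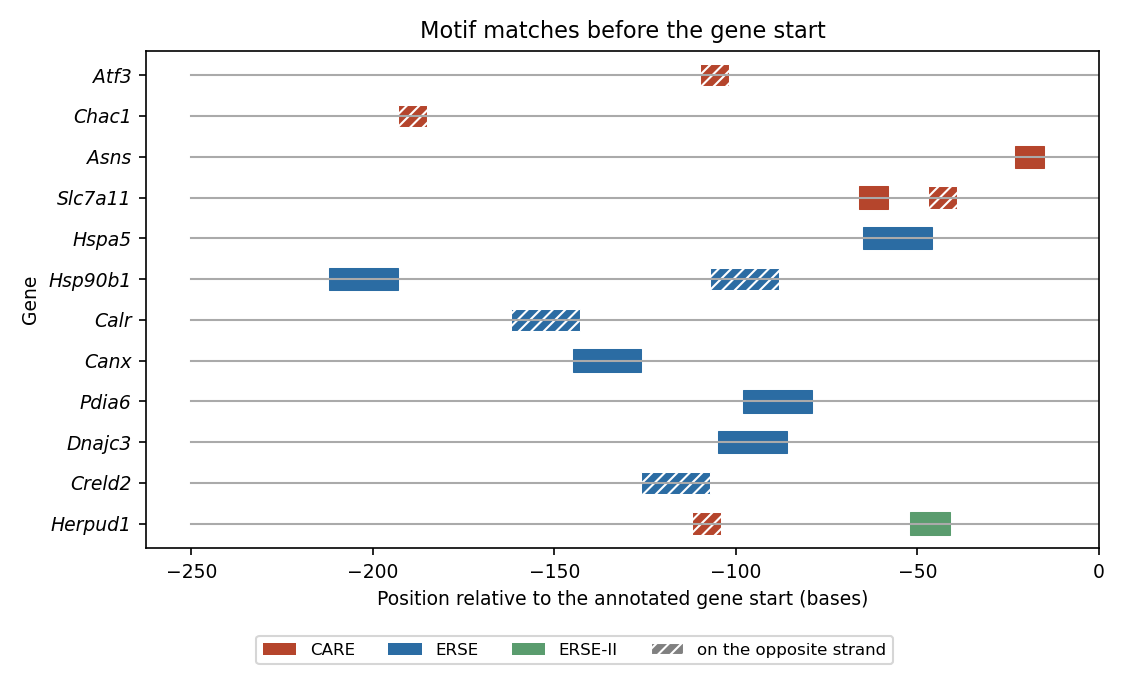
Matches of CARE, ERSE and ERSE-II in the 250 bases before the annotated start of 12 genes; the x axis is the position relative to the start in bases, and hatched boxes are matches on the opposite strand. The ERSE matches of the ER chaperones lie between 212 and 47 bases before the start.

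None of the 34 genes passed the test between days, but the 6 stress effectors among the ATF4 targets had higher means at day 15. For the amino acid genes and the ER chaperones the list medians lay near no difference. Their single genes ran from −0.27 to 0.40 and from −0.44 to 0.37 log2. The stress effectors had a median difference of 0.81 log2 (day 15 minus day 0), the 8 amino acid genes −0.021, the 13 ER chaperones and foldases 0.079, and all 19938 genes 0.018. At limma's adjusted p below 0.05 (Benjamini-Hochberg over the 19938 genes), 0 of the 34 were called, against 1.72% of all genes. At an unadjusted p below 0.05 limma had 3 of the 34, all higher at day 15 (Ddit3, Ddit4 and Sesn2), against 12.2% of all genes, or 7.38% in the higher and 4.78% in the lower direction. Both day 15 arrays lay above both day 0 arrays for 11 of the 34 (22.3% of all genes) and below them for 4 (17.8%). The share of the 34 whose arrays did not overlap, 15 genes, was thus near the 40.1% of all genes. The smallest difference called anywhere in this fit was 1.04 log2.

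The arrays differed in other ways that bear on all results. Of 10 chondrocyte markers, 6 were called higher at day 15, against 1.30% of all genes. Among them were Col2a1 and Acan, the main cartilage collagen and proteoglycan. Sox9, Col9a1 and Comp were higher but not called. Ihh was lower, at 9.09 and 9.29 log2 at day 0 and at 8.67 and 8.97 at day 15. The median marker was at 7.95 and 8.03 log2 at day 0 and at 10.70 and 11.41 at day 15. Of 8 fibroblast markers limma called 0, and 3 had an unadjusted p below 0.05, all higher, against 7.38% of all genes. Their summed levels were 15.25 and 15.07 at day 0 and 15.71 and 15.85 at day 15 over the 8 markers. At day 0 that sum was mostly Col1a1 and Col1a2. At day 15 Dcn was about as bright as either, with Col1a1 at 13.21 and 13.59 and Col1a2 at 13.64 and 13.76 log2. The matrix proteoglycans Dcn and Lum differed by far more between days, and also between the day 0 arrays. Dcn was at 8.10 and 11.27 log2 at day 0 and at 13.65 and 13.47 at day 15, and Lum was at 5.78 and 8.97 at day 0 and at 12.22 and 12.12 at day 15. Of 12 macrophage markers none was called, against 1.72% of all genes. Lyz2 alone had an unadjusted p below 0.05 in limma, higher at day 15, against 7.38% of all genes. The summed level of the 12 was 13.56 and 13.63 log2 on the replicate 1 arrays of day 0 and day 15. On the replicate 2 arrays it was 11.26 and 12.09. C1qb, a complement subunit of macrophages, was at 11.36 and 11.11 on the replicate 1 arrays and at 6.09 and 5.80 on the replicate 2 arrays. Ptprc and Adgre1 went the other way. Ptprc was at 7.82 and 7.39 on the replicate 1 arrays and at 8.14 and 8.15 on the replicate 2 arrays. Adgre1 was at 7.73 and 7.48 and at 7.98 and 7.65. Some macrophage markers were also higher at day 15 on the replicate 2 arrays, where Laptm5 was at 6.55 and then 8.56, Lyz2 at 8.88 and 10.38, Cd68 at 8.10 and 9.24 and Fcer1g at 8.77 and 9.85. Others were lower there at day 15, namely Csf1r (6.71 and then 6.49), C1qa (7.36 and 7.24), Tyrobp (7.05 and 6.91), Adgre1 and C1qb. Ptprc, C1qc (6.99 and 7.17) and Mpeg1 (5.76 and 6.06) were little higher. No marker was at 0, but no detection call was used, so this does not show that each was expressed. The part of these markers in the results was not tested. Adipocyte, muscle and endothelial markers, 6 each, had 0 called and summed levels of 9.98 to 10.23, 10.60 to 10.75 and 9.67 to 9.84 log2. Their per-array medians, 6.80 to 7.07, 7.68 to 7.75 and 7.02 to 7.13, lay below the median level of all genes (8.72). Emcn, an endothelial marker, alone had an unadjusted p below 0.05 in limma, higher at day 15, against 7.38% of all genes. In these bulk samples fewer cells of a type and less RNA per cell cannot be told apart.

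**Figure D2:**
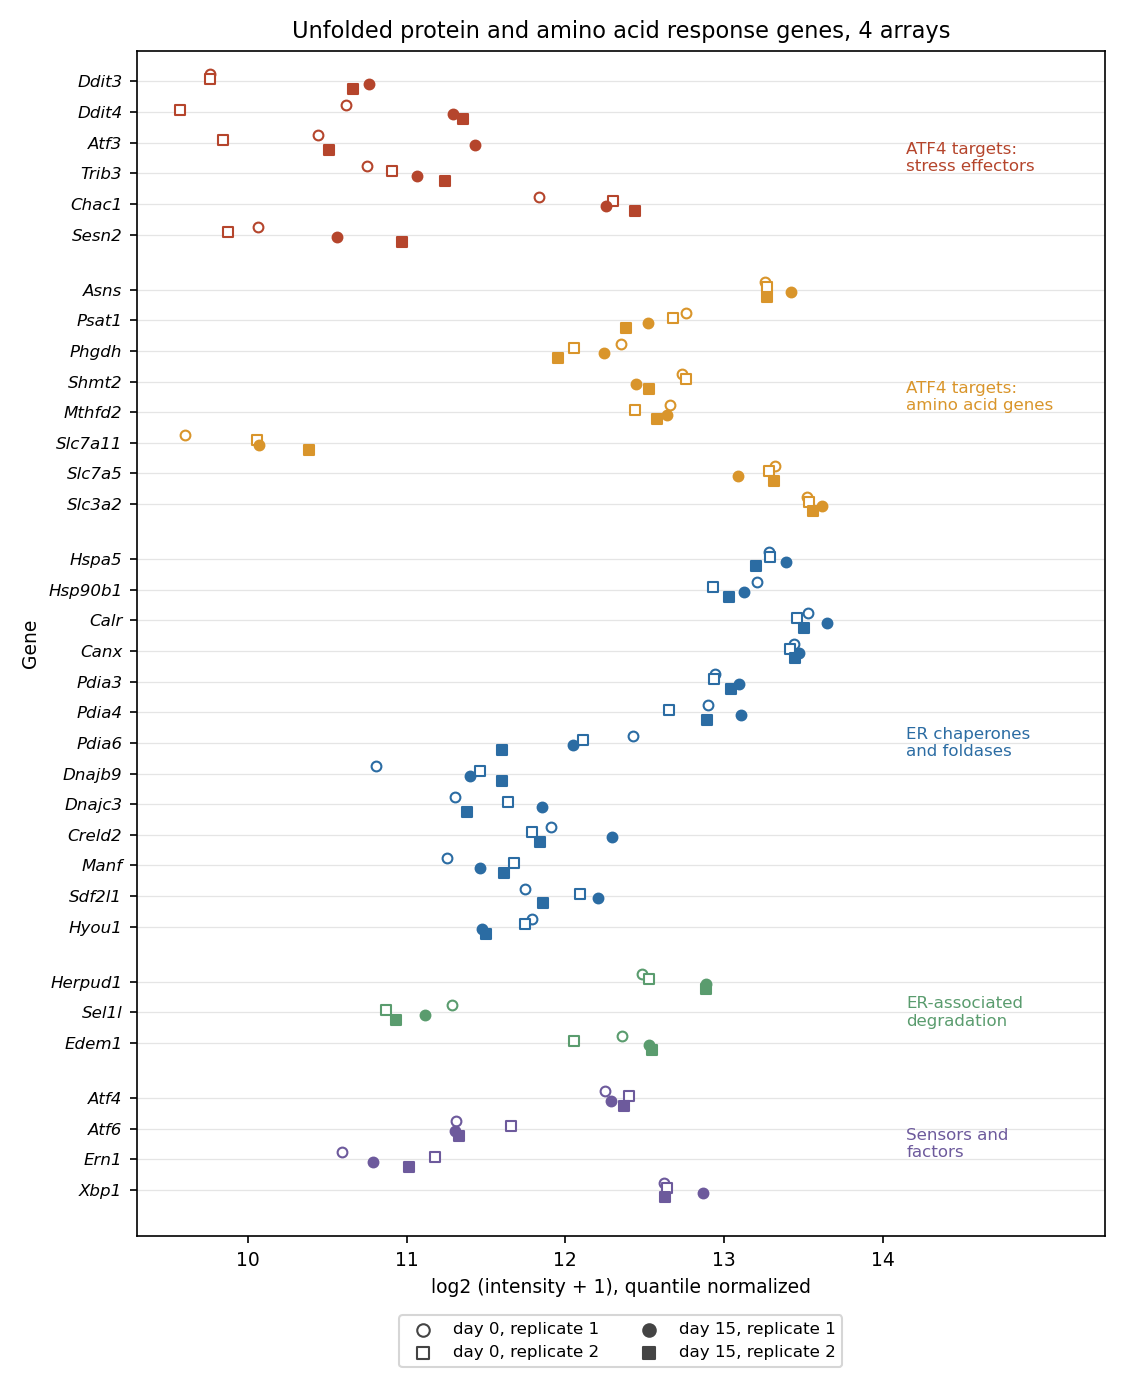
Level of each of the 34 genes on the 4 arrays (x axis, quantile normalized log2 intensity plus 1), by role; open symbols are day 0, filled symbols day 15, circles replicate 1 and squares replicate 2, offset vertically for sight. Filled symbols lie right of both open symbols for 5 of the 6 stress effectors and for 2 of the 13 ER chaperones, against 22.3% of all genes.

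Ddit3, the pro-apoptotic transcription factor CHOP at the end of the PERK branch, was at 9.76 and 9.76 log2 at day 0 and at 10.76 and 10.66 at day 15. The 4 values fall into separate pairs, with less spread within a day than for any other stress effector at day 0. The difference was 0.95 ± 0.16 log2 (SE), or 1.93-fold (95% interval 1.46 to 2.54, unadjusted), and did not pass over all genes (limma adjusted p = 0.0634). Ddit3 ranked 390 of 19938 genes by p. It passed only when the replicate number was a block (limma adjusted p = 0.0413). Over the other alternatives its adjusted p ran from 0.0504 to 0.235.

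Ddit4 (REDD1), an inhibitor of mTORC1 signaling, was at 10.62 and 9.57 log2 at day 0 and at 11.29 and 11.35 at day 15. Both day 15 values were above both day 0 values, but the day 0 arrays lay farther from each other than the nearest arrays of different days. Its difference of 1.23 ± 0.35 log2 (SE), or 2.34-fold (95% interval 1.30 to 4.23), was the largest of the 34 with all arrays and did not pass (limma adjusted p = 0.221). The value rested on the day 0 arrays. Without replicate 1 of that day, the higher one, the difference was 1.74 and passed (limma adjusted p = 0.0294). Without replicate 2 it was 0.70 (limma adjusted p = 0.435), less than that of Ddit3 without the same array (0.94). In both fits the lone day 0 array is assumed to vary like the day 15 pair.

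Sesn2, a stress-induced sestrin that also restrains mTORC1, was at 10.07 and 9.87 log2 at day 0 and at 10.56 and 10.97 at day 15. Its days did not overlap, and the difference of 0.80 ± 0.21 log2 (SE), 1.74-fold (95% interval 1.22 to 2.48), did not pass (limma adjusted p = 0.19). Atf3, a transcription factor induced early in stress, was at 10.44 and 9.85 log2 at day 0 and at 11.43 and 10.51 at day 15. On both days it was higher in replicate 1, where most macrophage markers were brighter, and the part of these markers was not tested. Atf3 on day 15 replicate 2 exceeded that on day 0 replicate 1 only slightly. Its difference was 0.83 ± 0.36 log2 (SE; limma adjusted p = 0.458). Without 1 array this moved to 0.36 (without day 15 replicate 1), 0.52 (without day 0 replicate 2) or 1.30 (without day 15 replicate 2), none of which passed.

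Trib3, a pseudokinase that feeds back on Atf4, was at 10.75 and 10.91 log2 at day 0 and at 11.06 and 11.24 at day 15, a difference of 0.32 ± 0.17 (SE; limma adjusted p = 0.582). The days were separate but close. Chac1, a gamma-glutamylcyclotransferase that degrades glutathione, was at 11.84 and 12.30 log2 at day 0 and at 12.26 and 12.44 at day 15. It was the stress effector whose days overlapped, with a difference of 0.28 ± 0.22 (SE; limma adjusted p = 0.76). Leaving out either day 0 array gave 0.050 (replicate 1 out) or 0.51 (replicate 2 out).

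All 6 stress effectors were higher in the day 15 mean, and 5 of 6 had no overlap between days, a pattern held by 22.3% of all genes in that direction. On the replicate 2 arrays alone, where C1qb and Csf1r were dim but Laptm5, Lyz2, Cd68 and Fcer1g were 1 log2 or more higher at day 15, the 6 differences ran from 0.14 for Chac1 to 1.76 for Ddit4, with 0.89 for Ddit3, 1.09 for Sesn2, 0.65 for Atf3 and 0.33 for Trib3. These compare 1 array with 1 and carry no test.

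Amino acid genes, the other side of the ATF4 targets, showed no common direction. Asns, the asparagine synthetase often read as a mark of Atf4 activity, was at 13.26 and 13.27 log2 at day 0 and at 13.42 and 13.27 at day 15. Its days overlapped, and the difference of 0.083 had a 95% interval of −0.32 to 0.49 log2. Serine synthesis was represented by Phgdh, its first enzyme, and Psat1, the aminotransferase after it. Psat1 was at 12.76 and 12.68 at day 0 and at 12.52 and 12.38 at day 15, so both day 15 arrays were lower, with a difference of −0.27 ± 0.17 log2 (SE; limma adjusted p = 0.658). Phgdh overlapped between days, with a difference of −0.10.

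Of the mitochondrial enzymes that pass serine carbon to folate, Shmt2, the hydroxymethyltransferase, was at 12.73 and 12.76 log2 at day 0 and at 12.45 and 12.53 at day 15 (limma adjusted p = 0.665). Both day 15 arrays were lower. Mthfd2, the dehydrogenase of the next step, overlapped between days at a difference of 0.061. The transporters did not pass either. Slc7a11, the cystine side of the cystine-glutamate exchanger, was at 9.60 and 10.06 at day 0 and at 10.07 and 10.39 at day 15, a difference of 0.40 ± 0.23 log2 (SE; limma adjusted p = 0.618) and the largest of the 8. Its days were separated by a small gap. Slc7a5, the leucine carrier LAT1, and Slc3a2, the heavy chain that both carriers need, had differences of −0.10 and 0.060. Across the 8 genes 4 differences were above 0 and 4 below. Both day 15 arrays lay above both day 0 arrays for 2 genes and below them for 2. The shares of all genes were 22.3% and 17.8%. Their 95% intervals reached down to −0.68 log2 (Psat1) and, apart from that of Slc7a11, up to no more than 0.49.

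**Figure D3:**
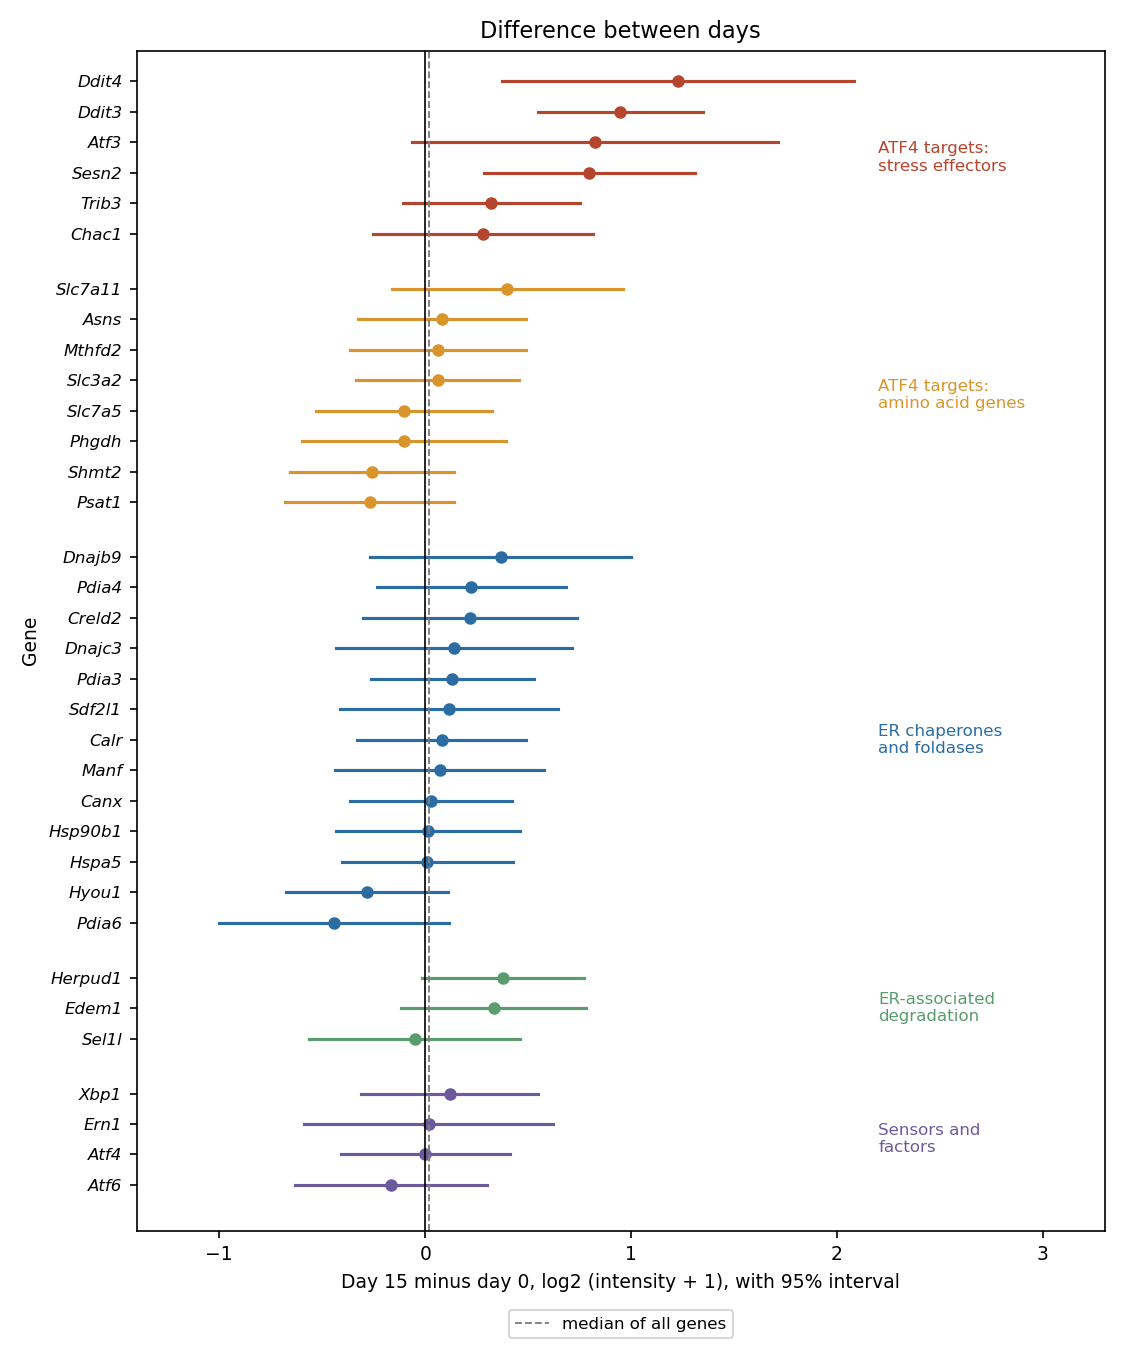
Difference of day 15 minus day 0 (x axis, log2 intensity plus 1) with limma's unadjusted 95% interval for the 34 genes, sorted within each role; the dashed line is the median of all genes (0.018). Only the intervals of Ddit4, Ddit3 and Sesn2 lie fully above 0, and none lies fully below.

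The ER chaperones and foldases, which fold secreted proteins, gave differences from −0.44 to 0.37 log2, and none was called. Of the 13 differences 11 were above 0, against 53.2% over all genes. Hspa5 (BiP), the central ER chaperone and standard mark of ER stress, was at 13.28 and 13.29 log2 at day 0 and at 13.39 and 13.20 at day 15. Day 15 lay on both sides of day 0, and the 95% interval of the difference, −0.41 to 0.43 log2, corresponds to 0.755- to 1.34-fold. Hsp90b1 (GRP94), the ER member of the HSP90 family, also overlapped, with a difference of 0.013. Calr and Canx, the lectin chaperones of the calnexin cycle, differed by 0.079 and 0.030. Canx was at 13.44 and 13.42 at day 0 and at 13.47 and 13.45 at day 15, separate by a margin far inside its error (SE 0.16).

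Among the protein disulfide isomerases, Pdia3, the partner of the calnexin cycle, was at 12.94 and 12.93 log2 at day 0 and at 13.09 and 13.05 at day 15 (limma adjusted p = 0.886). Pdia4 overlapped between days, with a difference of 0.22 for its brighter probe set and 0.055 for the dimmer one. Pdia6 went the other way, at 12.42 and 12.11 at day 0 and at 12.05 and 11.60 at day 15. Its difference of −0.44 ± 0.23 (SE) was the most negative of the 34 and did not pass (limma adjusted p = 0.547). Pdia6 carries an ERSE match like Hspa5.

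BiP's partners and helpers gave mixed values. Hyou1 (GRP170), a nucleotide exchange factor of BiP, was at 11.79 and 11.75 log2 at day 0 and at 11.48 and 11.50 at day 15. Both days were tight and apart, with a difference of −0.28 ± 0.16 (SE; limma adjusted p = 0.611). Dnajb9 (ERdj4) and Dnajc3 (p58IPK), J-domain partners of BiP, had differences of 0.37 and 0.14, and both overlapped between days. The 2 probe sets of Dnajc3 gave the same values. Creld2, Manf and Sdf2l1, small ER-resident proteins induced by ER stress, differed by 0.22, 0.071 and 0.12, and all 3 overlapped.

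ER-associated degradation, which returns misfolded proteins to the cytosol, had 3 genes. Herpud1, a scaffold of the retrotranslocation complex, was at 12.48 and 12.53 log2 at day 0 and at 12.88 on both day 15 arrays. This tight separation gave 0.38 ± 0.16 (SE), 1.30-fold, which did not pass (limma adjusted p = 0.438). Edem1, a lectin-like factor that extracts misfolded glycoproteins, was at 12.35 and 12.05 at day 0 and at 12.53 and 12.55 at day 15, a difference of 0.33 ± 0.18 (SE; limma adjusted p = 0.592). Its days did not overlap either. Sel1l, the adaptor of the ubiquitin ligase Hrd1, differed by −0.051 and overlapped.

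The 4 sensors and factors among the 34 all overlapped between days. Atf4 was at 12.25 and 12.40 log2 at day 0 and at 12.29 and 12.37 at day 15, with a 95% interval of the difference of −0.41 to 0.41. Its mRNA thus differed by less than the spread between arrays of a day, and its protein was not measured. Atf6 differed by −0.17, Ern1 by 0.017 and Xbp1 by 0.12, and the probe set of Xbp1 does not tell spliced from unspliced mRNA as annotated here. The eIF2 kinases PERK (Eif2ak3) and GCN2 (Eif2ak4), which are not among the 34, did not overlap between days, like 40.1% of all genes. PERK was at 10.75 and 10.33 log2 at day 0 and at 10.88 and 11.07 at day 15 (limma adjusted p = 0.511). GCN2 went the other way, at 10.09 and 9.86 at day 0 and at 9.49 and 9.65 at day 15 (limma adjusted p = 0.465). Eif2ak1 and Eif2ak2 overlapped.

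Set side by side, the 14 ATF4 targets had a median difference of 0.18 log2 and the 13 ER chaperones of 0.079. Within each array the median level of the ATF4 targets minus that of the ER chaperones was −0.33 and 0.066 log2 at day 0 and −0.045 and 0.31 at day 15, and the days overlapped. The mean of this gap was 0.26 higher at day 15, which is no larger than its spread between arrays of a day (SD 0.27). The gap was lower in replicate 1 on both days, and between days it differed by 0.29 within replicate 1 and by 0.24 within replicate 2. With probe sets of a gene averaged the difference was 0.052. Among these genes that step changed only the level of Pdia4. Its dimmer probe set was at 7.79 to 7.88 log2 and its brighter one at 12.65 to 13.11. When 1 array was left out, the difference lay between 0.069 and 0.47. The gap sets levels of different probe sets against each other, so only its change between days can be read. That change also depends on which gene holds the middle rank. Per-array medians of the ER chaperones were 12.42 and 12.11 at day 0 and 12.3 and 11.86 at day 15. They were lower at day 15 within each replicate number, although 11 of 13 differences were above 0. The middle gene was Pdia6 on both day 0 arrays, Creld2 on day 15 replicate 1 and Sdf2l1 on day 15 replicate 2. Since 2 arrays against 2 cannot give an exact permutation p below 0.33 and the genes were chosen with results known, no p is given. The pattern within the ATF4 targets was uneven: the stress effectors' median was 0.81 and that of the amino acid genes −0.021. In per-array medians, the stress effectors were at 10.53 and 9.86 at day 0 and at 11.18 and 11.11 at day 15, and the amino acid genes at 12.75 and 12.72 at day 0 and at 12.58 and 12.55 at day 15. Neither list median overlapped between days, one being higher and the other lower at day 15; the lower per-array median of the amino acid genes stands beside the near-zero median of their differences.

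**Figure D4:**
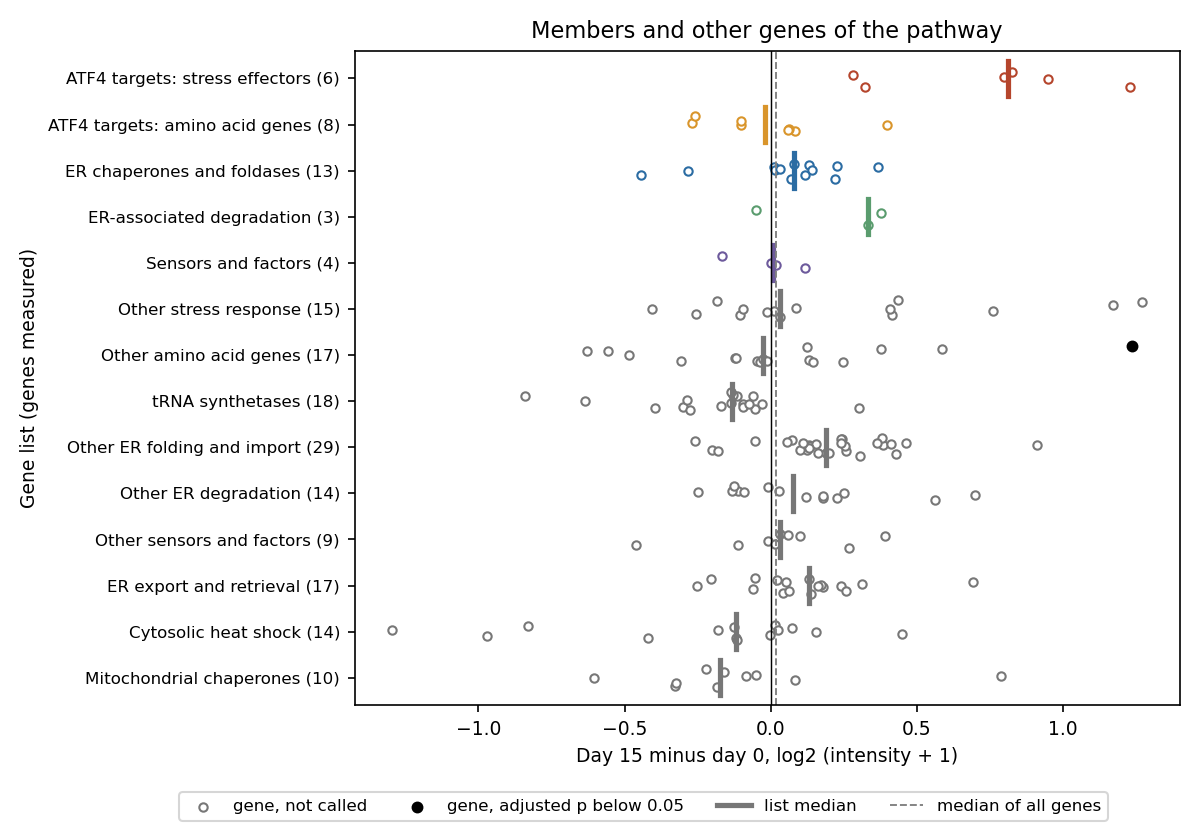
Difference of day 15 minus day 0 (x axis, log2 intensity plus 1) for the genes of each role and of 9 lists of other pathway genes; each circle is a gene, the filled black circle the called gene Slc7a3, thick bars are list medians and the dashed line the median of all genes. The highest list median is that of the stress effectors (0.81) and the lowest that of the mitochondrial chaperones (−0.17).

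Other genes of the pathway were read from lists written beside the 34. Of 143 list entries measured, 1 was called higher and none lower, against 1.30% and 0.411% of all genes. The called gene was Slc7a3, a cationic amino acid transporter, at 7.14 and 7.34 log2 at day 0 and at 8.60 and 8.35 at day 15, which is 2.35-fold (limma adjusted p = 0.0433). This call was lost when any 1 array was left out and is not part of the fit restricted to brighter genes, where Klhl24 was called. The median of the 17 other amino acid genes was −0.028, below or above 0 depending on the alternative.

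Of 15 other stress response genes (eIF2 kinases, phosphatase subunits and Atf4-linked genes) limma called 0. At an unadjusted p below 0.05 there were 4, all higher, against 7.38% of all genes in that direction. Klhl24, a BTB-Kelch protein, was at 11.11 and 10.60 log2 at day 0 and at 12.19 and 12.06 at day 15 (limma adjusted p = 0.0666). Vldlr, a lipoprotein receptor, was at 10.92 and 11.26 at day 0 and at 12.10 and 12.42 at day 15 (limma adjusted p = 0.0745). In both the days lay clearly apart, by 1.27 and 1.17 log2 in the means. Their list's median was 0.031.

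The aminoacyl-tRNA synthetases, which charge tRNAs and include Atf4 targets, mostly had lower means at day 15. Of 18 measured genes 17 had a negative difference (12 without day 0 replicate 1 or without day 15 replicate 2), against 9336 of all 19938 genes. The list median was −0.13 log2 (−0.20 to −0.072 over the alternatives). In 10 of 18 both day 15 arrays lay below both day 0 arrays, against 17.8% of all genes. At limma's adjusted p 0 were called, and 2 had an unadjusted p below 0.05, both lower, against 4.78% of all genes in that direction. Vars, the valine enzyme, was at 12.06 and 11.95 at day 0 and at 10.92 and 11.41 at day 15 (limma adjusted p = 0.183). Hars, the histidine enzyme, was at 11.59 and 11.35 at day 0 and at 10.77 and 10.89 at day 15 (limma adjusted p = 0.217). With all arrays the exception was Sars, at a difference of 0.30.

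Other ER folding and import genes mostly had higher means at day 15. Of 29, 25 had a positive difference (22 without day 0 replicate 2), against 53.2% of all genes. The list median was 0.19 log2 (0.14 to 0.23 over the alternatives). In 16 of 29 both day 15 arrays lay above both day 0 arrays, against 22.3% of all genes. At limma's adjusted p 0 were called, and 2 had an unadjusted p below 0.05, both higher, against 7.38% of all genes in that direction. Fkbp14, a prolyl isomerase that acts on collagen, was at 11.79 and 11.61 log2 at day 0 and at 12.82 and 12.39 at day 15 (limma adjusted p = 0.147). Sil1, a nucleotide exchange factor of BiP, was at 10.39 and 10.32 at day 0 and at 10.84 and 10.79 at day 15 (limma adjusted p = 0.328). Lists for ER export and retrieval (17 genes) and other ER degradation (14) had medians of 0.13 and 0.075, with 0 called by limma. At an unadjusted p below 0.05 they had 1 and 2 genes, all higher, against 7.38% of all genes. Kdelr3, a receptor that returns ER proteins from the Golgi, had the largest difference of the export list, 0.69 ± 0.16 log2 (SE; limma adjusted p = 0.153), followed by Kdelr1 at 0.31. In the degradation list Erlec1, a lectin, differed by 0.70 and Selenok, a selenoprotein of the ER membrane, by 0.56. Among 9 other sensors and factors the median was 0.030 and limma called 0. At an unadjusted p below 0.05 there was 1, lower at day 15, against 4.78% of all genes. Bak1, a pro-apoptotic BCL2 family member, differed by −0.46 and Creb3l1, an ER-bound transcription factor, by 0.39.

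Chaperones of other compartments had medians below 0, and 0 were called by limma. At an unadjusted p below 0.05 there were 5 cytosolic genes, 4 of them lower, and 1 mitochondrial gene, also lower. The shares of all genes were 7.38% in the higher and 4.78% in the lower direction. In the cytosolic heat shock list (14 genes, median −0.12, but −0.29 to 0.020 over the alternatives) Hspb1, a small heat shock protein, was at 13.02 and 13.57 log2 at day 0 and at 11.83 and 12.16 at day 15 (limma adjusted p = 0.0886). Hspa4l, of the HSP110 family, was at 10.76 and 10.59 at day 0 and at 9.64 and 9.78 at day 15 (limma adjusted p = 0.0709). Both had days far apart, but neither passed. The mitochondrial chaperone list (10 genes) had a median of −0.17 (−0.21 to −0.088 over the alternatives), with Htra2, a protease of the intermembrane space, at −0.61 and Atf5, a transcription factor that Atf4 induces, at 0.79 with overlapping days.

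The same motifs were also looked up in all other measured genes. Of 20 measured genes with ERSE before the start, 7 of them among the 34, 0 were called by limma, against 1.72% of all genes, and 3 (15.0%) had an unadjusted p below 0.05, against 12.2%. Their median difference was 0.078 log2. Of 7 with ERSE-II, 0 were called by limma and 2 had an unadjusted p below 0.05, with a median of 0.15. Of 491 with CARE, 8 (1.63%) were called higher and 1 (0.204%) lower, near the 1.30% and 0.411% of all genes, and the median was 0.032. Of 122 with UPRE, 1 was called higher and 1 lower (0.820% each), with a median of 0.0026.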

How the data were processed

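Each of 4 ATDC5 RNA samples, 2 per day, was measured on a 1-colour array, per the labels. The deposited values are linear intensities, 1 per probe set and array, judged from the values; for background correction, summarization and scaling by the authors the entry is: not given in the sources used here. No detection call was used.

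Of 35512 probe sets, 21789 have 1 gene symbol, 1621 several and 12102 none in the platform annotation. Only the first were used, with symbols updated by gene identifier (21698 matched), which gave 19938 genes after taking the brightest probe set of each gene. Intensities were turned to log2 after adding 1 and quantile normalized over all probe sets, since array medians differed by 0.20 log2. Differences understate the change of dim genes. Days were compared with limma 3.58.1 in R 4.3.3 over all genes, with Benjamini-Hochberg adjustment, and genes with an adjusted p below 0.05 were called. SE and 95% intervals are limma's moderated ones, and SD is the spread of 2 arrays. The code was tested on simulated data. With 4 arrays the number of arrays limits the precision.

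Genes are ordered by role. From each further list every called gene was named, or otherwise the 2 with the largest difference at or above the median level. Sars, the eIF2 kinases and the cell type markers named were chosen after seeing values. Of these lists 13 symbols matched no measured gene and were not analysed here. Members and lists were chosen with earlier results of these data known. Alternatives were the deposited scaling, median centring, averaged probe sets, a pseudocount of 16, limma with trend and robust set, the 9969 brighter genes alone (median level or more), a block for the replicate number, and leaving out each array. Plots used matplotlib 3.10.9 (Python 3.11.15).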

Additional observations from a re-analysis of the deposited data

How the results depend on the processing

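The call of no gene among the 34 held under every alternative except 2: with the replicate number as a block 1 was called (Ddit3), and without an array the count ran from 0 to 1 (Ddit4, without day 0 replicate 1). The number called over all genes was 342, 628 with the block and 175 to 286 without 1 array, so fewer arrays gave fewer calls. Replicate numbers are not said to pair samples; across genes, replicate 1 minus replicate 2 of day 0 correlated with that of day 15 at r = 0.403. Among other pathway genes 5 were called with trend and robust hyperparameters (Hspb1, Kdelr3, Klhl24, Slc7a3 and Vldlr), 5 with the block and 0 to 1 without 1 array (Klhl24). Genes of the 34 with no overlap between days numbered 15, and 19 to 29 without 1 array, where fewer values make separation easier. The median of the ATF4 targets was 0.12 to 0.24 log2 without 1 array. That of the amino acid genes was −0.055 with median centring, −0.085 to 0.066 without 1 array and 0.0093 on the replicate 2 arrays alone, an alternative chosen after seeing the data, so it has no settled sign. The stress effectors' median ran from 0.61 to 0.92 and that of the ER chaperones from −0.0077 to 0.15 over the same fits. Under at least 1 of 12 alternatives 15 of the 34 genes changed sign, none a stress effector and none with a difference over 0.22. With the whole promoter window 6 genes held CARE and 7 ERSE.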
